A study of Homo sapiens with 8 samples.

Results

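The peaks described here lie on the genes of the IGF2BP family, IGF2BP1, IGF2BP2 and IGF2BP3, in the human glioma cell line A172. They were chosen as all peaks whose deposited gene name is 1 of these 3, in the lists of 4 immunoprecipitation (IP) libraries, 2 of PTBP1 and 2 of IGF2BP2. They number 1102 of 1843422 peaks, of which 342 and 308 were in PTBP1 IP replicates 1 and 2 and 214 and 238 in IGF2BP2 IP replicates 1 and 2. IGF2BP1 had 370 of them, IGF2BP2 369 and IGF2BP3 363. IGF2BP2 is thus both a precipitated protein and a gene whose own RNA was measured. Its peaks in its own IP are named self binding here, and those on IGF2BP1 and IGF2BP3 cross binding within the family. The names say where peaks lie, not that they were enriched over input.

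The series measured where PTBP1 and IGF2BP2 contact RNA by eCLIP, an enhanced form of crosslinking and immunoprecipitation followed by sequencing. All cells carried 4-thiouridine, a nucleoside that crosslinks to protein under long-wave ultraviolet light, given at 500 µM for 3 h, and were exposed 2 times to 400 mJ per square centimetre at 365 nm. Each IP had a paired input, 2% of the lysate, and RNA was taken from 55 to 130 kDa of the blot for PTBP1 and from 65 to 140 kDa for IGF2BP2. The labels do not say whether the 2 replicates were separate cultures, so a p-value measures the spread between these libraries only, which may be technical.

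IGF2BP proteins bind mRNA in the cytoplasm through RNA recognition motifs and KH domains, and are known for protecting target mRNAs from decay, for their localization and for their translation. The family is abundant in the embryo. IGF2BP1 and IGF2BP3 fall silent in most adult tissues and return in many tumours, while IGF2BP2 persists more widely and is known in glioblastoma. PTBP1, the other protein, binds pyrimidine-rich RNA and is best known as a repressor of exons in the nucleus.

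Sequence was to hand for the start of the IGF2BP2 transcript, and it is shown because it holds the peak closest to the start of any of the 3 genes. Base 1 is the first transcribed base in RefSeq (GRCh38.p14, chr3:185825013-185825042, minus strand), and capitals mark the 8 bases of a PTBP1 peak.
IGF2BP2 transcript start: gaggagagACGAGGGCagcggaggaggcga
The peak (chr3:185825027-185825034) was listed in PTBP1 replicate 2 only, with 18 IP and 5 input reads and a log2 of 1.77, and is annotated as an exon outside coding sequence. A neighbour at chr3:185824988-185824995 had 16 IP and 8 input reads in the same library, and IGF2BP2 replicate 2 had 3 IP and 12 input reads at chr3:185824979-185824995. Neither peak of PTBP1 nor that of IGF2BP2 was listed in the other replicate.

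The 3 genes differ in size and place. IGF2BP1 spans 59588 nt (chromosome 17, 48996558 to 49056145, plus strand), IGF2BP2 181913 nt (chromosome 3, 185643130 to 185825042, minus strand) and IGF2BP3 160283 nt (chromosome 7, 23310209 to 23470491, minus strand). Peaks stood closest together on IGF2BP1, with 1.75 and 1.51 per kb of gene in the PTBP1 lists and 1.51 and 1.44 in the IGF2BP2 lists. IGF2BP2 had 0.720 and 0.660 per kb in PTBP1 and 0.313 and 0.335 in IGF2BP2, and IGF2BP3 had 0.668 and 0.611 in PTBP1 and 0.418 and 0.568 in IGF2BP2.

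Relative to the size of each list, IGF2BP1 was denser in IGF2BP2 peaks than in PTBP1 peaks, and this was the only 1 of the 3 genes to pass the test, which 25.0% of all 15145 genes tested passed. IGF2BP1 had 104 and 90 peaks in PTBP1 replicates 1 and 2 and 90 and 86 in IGF2BP2 replicates 1 and 2, in lists of 600615, 538802, 362700 and 341305 peaks. Its density, in log2 of peaks per 10000 of the list, was 0.80 and 0.75 in PTBP1 and 1.32 and 1.34 in IGF2BP2. The difference, PTBP1 minus IGF2BP2, was -0.56 ± 0.11 (SE; limma adjusted p = 0.0115), toward IGF2BP2, as in 12.3% of all genes.

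The difference had the opposite sign for the IGF2BP2 gene. It had 131 and 120 PTBP1 peaks against 57 and 61 IGF2BP2 peaks, and log2 densities of 1.13 and 1.16 against 0.66 and 0.85. The difference of 0.39 ± 0.12 (SE) just missed the threshold (limma adjusted p = 0.0524), which 12.7% of all genes passed toward PTBP1. It passed under several other settings, with 0.72 ± 0.11 (SE) and a limma adjusted p of 0.00295 when nucleotides were counted in place of peaks. That setting called 6405 of 15145 genes, 3209 of them toward PTBP1. Leaving aside the fits to a single transcript region, the adjusted p ran from 0.00295 to 0.196 over the settings tried.

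IGF2BP3 gave no call, and its 2 IGF2BP2 libraries stood apart. It had 107 and 98 peaks in PTBP1 against 67 and 91 in IGF2BP2. Log2 densities were 0.84 and 0.87 in PTBP1 and 0.90 and 1.42 in IGF2BP2, with 1 IGF2BP2 value close to those of PTBP1. The difference was -0.30 ± 0.18 (SE; limma adjusted p = 0.235). With 1 IGF2BP2 library left, it was -0.57 without replicate 1 and -0.04 without replicate 2, so 1 library decides this value.

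**Figure D1:**
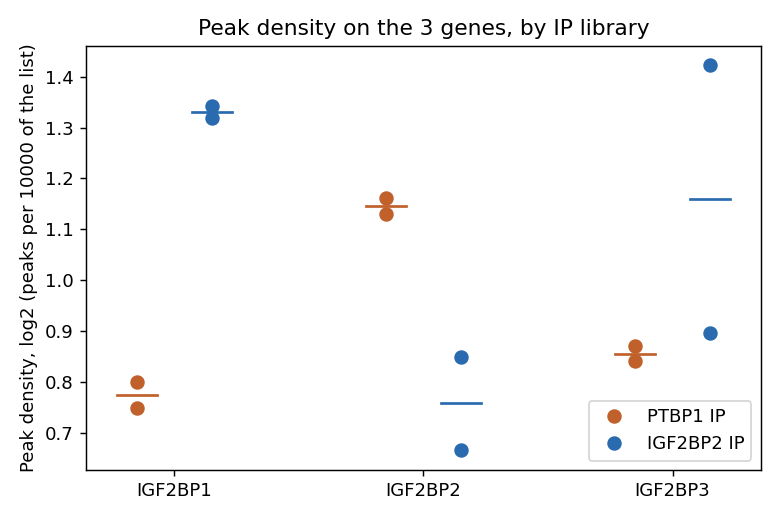
Peak density on IGF2BP1, IGF2BP2 and IGF2BP3 as log2 of peaks per 10000 peaks of the list. Each point is 1 IP library and each bar the mean of the 2 libraries of a protein. IGF2BP1 is higher in the IGF2BP2 libraries (1.32 and 1.34 against 0.80 and 0.75), the IGF2BP2 gene in the PTBP1 libraries, and the 2 IGF2BP2 values of IGF2BP3 lie far apart (0.90 and 1.42).

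The reads behind these peaks differed between the proteins. IP and input reads could be recovered from the deposited scores for 215 of 342, 207 of 308, 172 of 214 and 193 of 238 peaks of the family, in the order of the libraries above. On the IGF2BP2 gene the median was 8 and 6 IP reads per peak in PTBP1 against 4 and 3 in IGF2BP2, and 43.4% and 60.7% of its recovered IGF2BP2 peaks had exactly 3 reads, the lowest number considered. Peaks of at least 10 IP reads numbered 46 and 39 in PTBP1 and 2 and 1 in IGF2BP2. Over such peaks the IGF2BP2 gene was denser in PTBP1 by 2.21 ± 0.31 (SE; limma adjusted p = 0.00522), a direction called in 33.9% of the 7868 genes tested, of which 50.0% were called in all. IGF2BP1 had 57 and 52 such peaks in PTBP1 against 14 and 10 in IGF2BP2, and its difference was -0.10 ± 0.19 (SE; limma adjusted p = 0.691). The median difference over all genes tested was 0.64 in this fit, against -0.01 in the fit over all peaks, so 0 is not the typical gene here. IGF2BP3 had 21 and 14 against 4 and 5 (-0.43 ± 0.29 SE, limma adjusted p = 0.282). Peaks without recovered reads are not counted. On IGF2BP3 reads were recovered for 38 of 107 and 47 of 98 PTBP1 peaks against 50 of 67 and 75 of 91 IGF2BP2 peaks. On IGF2BP1 this was 64 of 104 and 56 of 90 against 69 of 90 and 62 of 86. The IGF2BP2 gene had 113 of 131 and 104 of 120 against 53 of 57 and 56 of 61. Recovery needed a deposited log2 of at least 0, and deposited values carry a constant per chromosome. In the PTBP1 lists that of chromosome 3 (IGF2BP2) lay 0.73 and 0.64 from the median chromosome. Chromosomes 17 and 7 lay -0.22 and -0.19, and -0.14 and -0.12, from it.

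Within IGF2BP1 a larger share of the PTBP1 peaks lay in coding sequence and of the IGF2BP2 peaks in the 3′ UTR, as over all peaks of the lists. Coding sequence held 26 and 16 PTBP1 peaks against 4 and 2 IGF2BP2 peaks, or 21.4% ± 5.11 (SD, n = 2) against 3.39% ± 1.5 (SD, n = 2) of the peaks on the gene. The 3′ UTR held 13 and 9 PTBP1 peaks against 20 and 21 IGF2BP2 peaks, or 11.2% ± 1.77 (SD, n = 2) against 23.3% ± 1.55 (SD, n = 2). Neither share overlapped between the proteins, and each gave an exact two-sided permutation p of 0.333, below which 2 libraries against 2 cannot go. Over all peaks of the lists the coding-sequence share was 13.3% and 13.5% of PTBP1 peaks against 9.18% and 9.25% of IGF2BP2 peaks, and the 3′ UTR share 3.14% and 3.29% against 6.61% and 6.80%. The direction on IGF2BP1 is thus that of the lists as wholes.

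Scaled to the coding-sequence peaks of each list alone, IGF2BP1 was denser in PTBP1 by 1.41 ± 0.38 (SE; limma adjusted p = 0.0667), short of the threshold that 18.6% of 6008 genes passed, 10.2% toward PTBP1 and 8.42% toward IGF2BP2. This is the opposite sign of the value over all peaks. In the 3′ UTR it was denser in IGF2BP2 by -0.52 ± 0.20 (SE; limma adjusted p = 0.140), where 11.9% of 2610 genes passed, 5.56% toward PTBP1 and 6.36% toward IGF2BP2. In introns it passed at -0.70 ± 0.14 (SE; limma adjusted p = 0.0132), toward IGF2BP2, beside 25.8% of 13055 genes called. Introns held 60 and 61 PTBP1 peaks and 63 and 60 IGF2BP2 peaks, nearly the same number from lists of unequal size.

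IGF2BP1 ranked near the top for IGF2BP2 peaks in 3′ UTRs. Only 84 of the 5230 genes with such a peak had more in replicate 1, and 72 of 5103 in replicate 2. For PTBP1 peaks in 3′ UTRs it also ranked high, with more on 180 of 5275 and 354 of 5092 genes. For PTBP1 peaks in coding sequence, 442 of 10919 and 956 of 10560 genes had more.

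The other members carried few exonic peaks. On the IGF2BP2 gene, coding sequence held 8 and 8 PTBP1 and 3 and 8 IGF2BP2 peaks, the 3′ UTR 3 and 2 against 2 and 4, and introns 120 and 108 against 52 and 48. The intron share was 90.8% ± 1.13 (SD, n = 2) in PTBP1 and 85.0% ± 8.87 (SD, n = 2) in IGF2BP2, and the groups overlapped (exact permutation p = 0.667). In introns alone, the IGF2BP2 gene was denser in PTBP1 by 0.50 ± 0.12 (SE; limma adjusted p = 0.0249). This fit called 25.8% of 13055 genes, 12.7% toward PTBP1. IGF2BP3 was nearly all intron, with 103, 95, 63 and 89 peaks there, 4, 3, 2 and 1 in coding sequence and 0, 0, 2 and 1 in the 3′ UTR. Within coding sequence, density differed by -0.59 ± 0.51 (SE; limma adjusted p = 0.442) on the IGF2BP2 gene and by -0.20 ± 0.43 (0.759) on IGF2BP3, which had too few 3′ UTR peaks to be tested there.

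**Figure D2:**
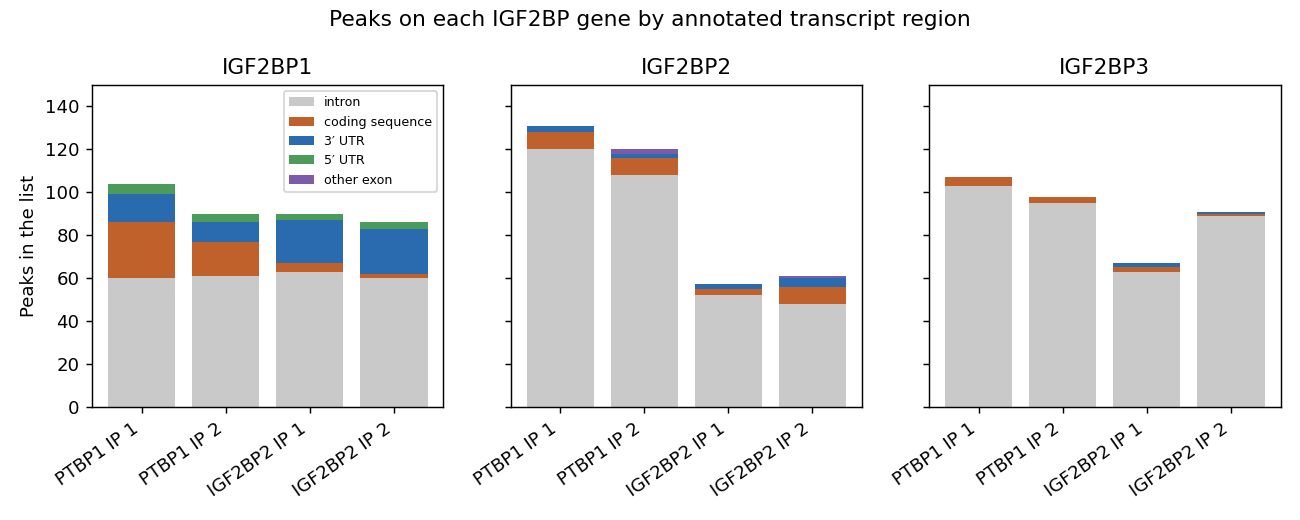
Number of peaks on each gene in each IP library, stacked by the annotated transcript region. On IGF2BP1 the coding-sequence part is large in PTBP1 (26 and 16) and the 3′ UTR part in IGF2BP2 (20 and 21), while the IGF2BP2 and IGF2BP3 bars are mostly intron.

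A peak was called enriched with a log2 of IP over input and a −log10 p of at least 3, after all chromosomes of a list were brought to 1 scale. A region counted for a protein where overlapping peaks of both replicates each held an enriched one. The score and reads given for a region in a replicate are those of its peak with the highest log2. The same holds for the other protein at that place. The bar was unequal, as with equal IP and input reads a PTBP1 peak scored -0.30 or -0.08 and an IGF2BP2 peak 1.74 or 1.90. Recovered input reads were never below 1, so an input of 1 may also stand for none. Each member had such a region for both proteins, as had 17.7% of the genes with a reproducible PTBP1 region and 27.9% of those with a reproducible IGF2BP2 region. IGF2BP1 had 2 of 60 for PTBP1 and 4 of 46 for IGF2BP2, the IGF2BP2 gene 1 of 71 and 2 of 20, and IGF2BP3 1 of 60 and 2 of 37. Over all genes, 2.32% of PTBP1 and 5.91% of IGF2BP2 regions were enriched. Shares of genes with an enriched region, here and below, were not matched for the number of regions a gene held. A gene with many regions has more that can pass.

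The IGF2BP2 regions on IGF2BP1 that were enriched in both replicates lay in the 3′ UTR, while most of the cross binding peaks, 63 of 90 and 60 of 86, were in introns. All 4 enriched regions were among the 13 reproducible ones of the 3′ UTR, and 0 among the 29 of introns. Over all genes, 32.8% of those with a reproducible 3′ UTR region had an enriched one there, and 21.3% of those with an intron region. Neither share was matched for their number of regions. Of all 3′ UTR peaks in each IGF2BP2 list 20.9% were enriched, against 8.68% and 8.82% of all intron peaks. The strongest region on IGF2BP1, at chr17:49050281-49050314, scored a log2 of 5.32 (12 IP and 1 input reads) in replicate 1 and 5.07 (9 and 1) in replicate 2. The next, at chr17:49051746-49051775, scored 4.91 (9 and 1) and 5.23 (10 and 1). Neither held a PTBP1 peak in any library.

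The other enriched regions were near the 3′ end of the gene. The region at chr17:49055295-49055376 scored 4.20 (11 and 2 reads) and 3.13 (14 and 6), also with no PTBP1 peak. At chr17:49055490-49055540 the scores were 3.32 (15 and 5) and 4.49 (12 and 2), and here PTBP1 had peaks in both replicates with a log2 of -0.07 and 0.58. A region at chr17:49054867-49054894 fell short in replicate 2 only, with 3.74 (36 and 9) and 2.80 (13 and 7), against 0.81 and 0.80 for PTBP1.

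The IGF2BP2 peak with the most reads on IGF2BP1 was not among the enriched. It lay in the 3′ UTR 53.0 kb from the gene start (chr17:49049477-49049559) and had 55 IP and 35 input reads in replicate 1, a log2 of 2.39, and 19 and 23 in replicate 2, a log2 of 1.63. In both replicates 5 peaks of the 3′ UTR were enriched, of 20 and 21, beside 20.9% of all 3′ UTR peaks in each list.

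PTBP1 on IGF2BP1 had its enriched regions upstream of those of IGF2BP2. In coding sequence, the best peaks of chr17:49041378-49041500 scored 4.22 (46 IP and 2 input reads) and 3.97 (33 and 2). They were 9 and 10 nt long, and the longest enriched peaks of the region scored 3.42 (79 and 6) and 3.01 (51 and 6). Of genes with a reproducible PTBP1 region in coding sequence, 11.8% had an enriched one. In an intron, chr17:49040053-49040091 scored 4.28 (48 and 2) and 3.83 (30 and 2). No IGF2BP2 library had a peak at either. PTBP1 had no enriched region among 8 in the 3′ UTR, where 3.23% of genes with a reproducible one had any. Of the 11 reproducible PTBP1 regions in the coding sequence of IGF2BP1, this was the only enriched one, and the others had a mean log2 from 0.47 to 1.94. The deepest PTBP1 peak, with 174 IP and 45 input reads at chr17:49045890-49046036, scored 1.65 in replicate 1 and 0.51 in replicate 2.

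**Figure D3:**
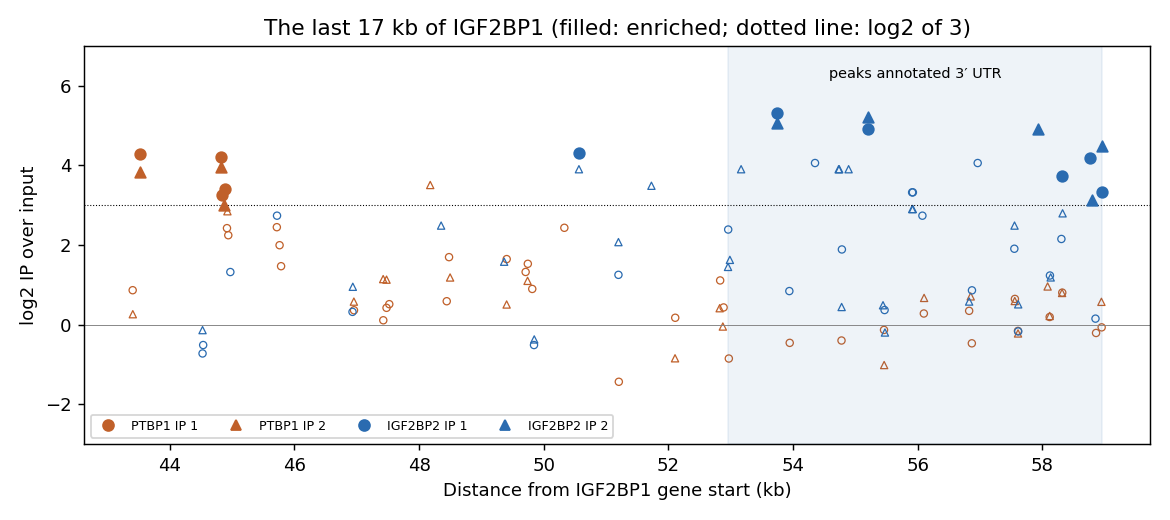
Log2 of IP over input of each peak in the last 17 kb of IGF2BP1 against the distance from the gene start. Circles are replicate 1, triangles replicate 2, filled symbols enriched peaks, and the shaded span reaches from the first to the last peak annotated as 3′ UTR. Enriched PTBP1 peaks sit near 43.5 and 44.9 kb, and enriched IGF2BP2 peaks of both replicates at 53.7, 55.2, 58.8 and 59.0 kb.

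Self binding of IGF2BP2, to the RNA of its own gene, gave 2 enriched regions, both in introns and both with few reads. The region at chr3:185651535-185651559 scored 4.55 (7 IP and 1 input reads) and 4.49 (6 and 1), with no PTBP1 peak. The region at chr3:185765222-185765267 scored 3.06 (10 and 4) and 4.71 (7 and 1), where PTBP1 scored -0.79 and 1.51. With a −log10 p of at least 5 required, 0 remained. Enriched intron regions were present in 21.3% of genes with a reproducible IGF2BP2 intron region. The median log2 over the IGF2BP2 intron peaks of the gene was 3.32 and 3.49, against 2.32 and 2.49 over all intron peaks of those lists. These 2 medians equal the score of 3 IP reads over 1 input read, the lowest read numbers seen, so they do not show strong binding. The median over these intron peaks was 4 and 3 IP reads, and only 3 in each list were enriched. In the exons of its own mRNA no IGF2BP2 peak was enriched in either replicate. Recovered IP reads reached at most 5 and 4 in coding sequence and 5 and 3 in the 3′ UTR. An intron peak of 5 IP over 1 input reads had a −log10 p of 2.50 in replicate 1, so reads this few could not pass. Of genes with a reproducible IGF2BP2 region in coding sequence, 7.18% had an enriched one there, and for the 3′ UTR this was 32.8%.

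PTBP1 had its deepest peak of the family in the 3′ UTR of the IGF2BP2 gene, below the bar. At chr3:185644634-185644691 it had 468 IP and 113 input reads in replicate 1, a log2 of 1.75 and a −log10 p of 33.7, and 337 and 104 in replicate 2, a log2 of 1.62 and a −log10 p of 25.0. IGF2BP2 scored -1.74 and -1.92 at this place, below 0 in both replicates. The 1 enriched PTBP1 region was in an intron, chr3:185665083-185665163, with 4.65 (31 and 1) and 3.01 (17 and 2), and 13.7% of genes with a reproducible PTBP1 intron region had an enriched one. A coding-sequence region at chr3:185687105-185687191 reached the bar in replicate 2 only, with 2.89 (64 and 7) and 3.32 (63 and 6). On the scores as deposited PTBP1 had 7 enriched regions here in place of 1, as chromosome 3 sat 0.73 and 0.64 above the common scale in the PTBP1 lists.

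Cross binding of IGF2BP2 to IGF2BP3 also gave 2 enriched regions, both in introns. At chr7:23404049-23404071 the scores were 4.74 (8 and 1) and 4.71 (7 and 1), with no PTBP1 peak. At chr7:23463125-23463153 they were 4.32 (6 and 1) and 5.07 (9 and 1), with a PTBP1 peak of 0.28 in replicate 1. Here too 0 remained at a −log10 p of at least 5. PTBP1 had 1 enriched region, in an intron at chr7:23368300-23368373, with 4.70 (32 and 1) and 4.38 (22 and 1).

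The 3′ UTR of IGF2BP3 had 1 reproducible IGF2BP2 region, chr7:23312105-23312130, which scored 2.55 (7 and 4) and 3.07 (9 and 4). PTBP1 had no peak in this UTR in either replicate. The IGF2BP2 peak with the most reads on IGF2BP3 was intronic (chr7:23411748-23411818), with 26 and 14 reads and a log2 of 2.63 in replicate 1, and 18 and 11 and 2.62 in replicate 2. PTBP1 scored -1.98 and -1.55 there.

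**Figure D4:**
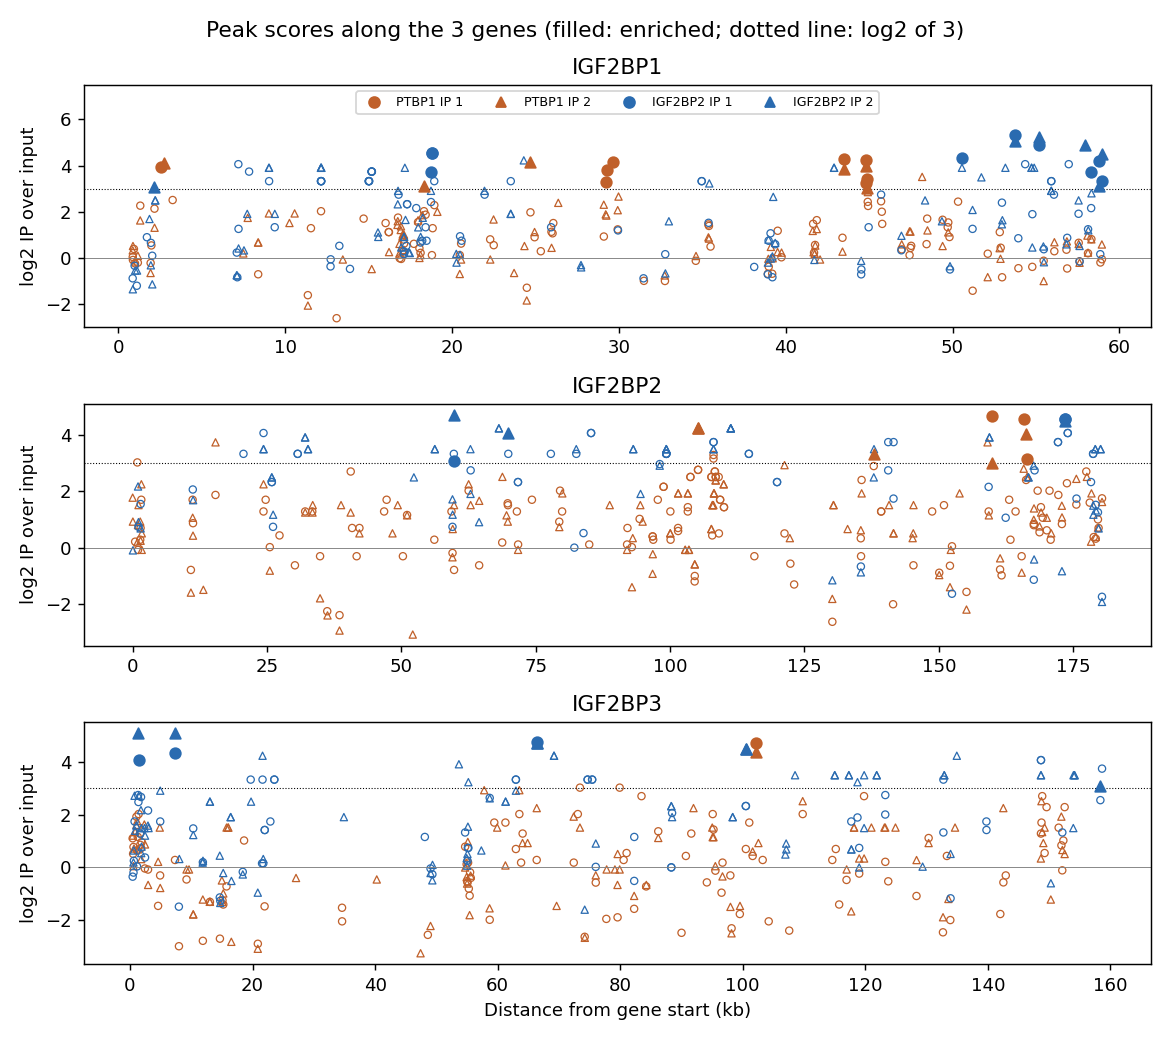
Log2 of IP over input of every peak on the 3 genes against the distance from the gene start, on 1 scale per list. Circles are replicate 1, triangles replicate 2, and filled symbols enriched peaks, of which IGF2BP1 had 8, 6, 9 and 6 in the 4 lists, the IGF2BP2 gene 3, 5, 3 and 3, and IGF2BP3 1, 1, 3 and 7. Some of these adjoin, or overlap on opposite strands, with the same reads, so they are not all separate sites. On IGF2BP1, 5 of 9 and 5 of 6 enriched IGF2BP2 peaks lie in the 3′ UTR.

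Peaks were spread unevenly along each gene. The stretch from 20% to 30% of IGF2BP1 held 23 of 90 and 15 of 86 IGF2BP2 peaks and 13 of 104 and 13 of 90 PTBP1 peaks. Its final 10% held 19 of 90 and 18 of 86 IGF2BP2 peaks, against 12 of 104 and 9 of 90 of PTBP1. The first 10% of IGF2BP3 held 24 of 107 and 26 of 98 PTBP1 peaks and 19 of 67 and 26 of 91 IGF2BP2 peaks, so both proteins were crowded there. Between 50% and 60% of the way along the IGF2BP2 gene lay 33 of 131 and 32 of 120 PTBP1 peaks against 7 of 57 and 9 of 61 of IGF2BP2. The final 10% of the IGF2BP2 gene held 25, 19, 15 and 15 peaks.

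Some peaks lay on the strand opposite to the gene they were named for. For the IGF2BP2 gene there were 16 and 13 in PTBP1 and 3 and 5 in IGF2BP2, and all fell inside IGF2BP2-AS1, an antisense long non-coding RNA (chromosome 3, 185713252 to 185729787) mostly in that same stretch of the gene. Of these, 14, 13, 2 and 3 overlapped a peak on the strand of the gene, so the strand of the RNA cannot be told apart there. On IGF2BP1 there were 14, 14, 12 and 8, of which 13, 13, 11 and 7 fell inside the long non-coding RNA LOC124904020 (chromosome 17, 48999269 to 49014487). IGF2BP3 had 0 in each list. With peaks on the strand of the gene alone, density differed by -0.60 ± 0.12 (SE; limma adjusted p = 0.00968) on IGF2BP1, by 0.32 ± 0.12 (0.0886) on IGF2BP2 and by -0.30 ± 0.17 (0.229) on IGF2BP3.

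PTBP1 peaks on IGF2BP1 were found again in the other replicate at a share above that of all genes, beyond intervals that cover counting error only. Overlap by at least 1 nt was seen for 71.2% (95% Wilson interval 61.8% to 79.0%) and 75.6% (65.8% to 83.3%) of the PTBP1 peaks on IGF2BP1, against 55.6% and 61.5% over all genes. On the IGF2BP2 gene, 38.6% (27.1% to 51.6%) and 34.4% (23.7% to 47.0%) of the IGF2BP2 peaks recurred, against 48.2% and 51.6% over all genes. The interval of replicate 1 reached the value of all genes and that of replicate 2 did not. Among PTBP1 peaks of at least 10 IP reads, IGF2BP1 was at 73.7% (61.0% to 83.4%) and 78.8% (66.0% to 87.8%), no longer above the 77.7% and 82.9% of all genes. At that read number the IGF2BP2 gene, lowest of the 3 over all peaks, was highest, at 82.6% and 89.7% in PTBP1 against 81.0% and 78.6% on IGF2BP3, and all of its 2 and 1 IGF2BP2 peaks recurred. For IGF2BP3 the shares were 60.7% and 65.3% in PTBP1 and 58.2% and 46.2% in IGF2BP2, with intervals that held the values of all genes.

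From the side of the PTBP1 peaks, overlap with IGF2BP2 was highest on IGF2BP1. Of its PTBP1 peaks in replicate 1, 38.5% (29.7% to 48.1%) and 30.8% (22.7% to 40.2%) were overlapped by IGF2BP2 replicates 1 and 2, against 20.4% and 19.2% over all genes. On the IGF2BP2 gene these were 13.7% (8.87% to 20.7%) for each, and on IGF2BP3 22.4% (15.6% to 31.2%) and 24.3% (17.2% to 33.2%). Over PTBP1 peaks of at least 10 IP reads IGF2BP1 was no longer highest, and its intervals held the values of all genes. It was then at 29.8% and 19.3% in replicate 1 and 30.8% for each in replicate 2, against 29.3%, 27.8%, 32.1% and 30.4% over all genes. The means were 27.7% on IGF2BP1, 27.7% on the IGF2BP2 gene and 35.1% on IGF2BP3. From the side of the IGF2BP2 peaks, over all read numbers, shares overlapped by a PTBP1 library ran from 33.3% to 43.3% on IGF2BP1, 29.8% to 39.3% on the IGF2BP2 gene and 35.2% to 47.8% on IGF2BP3, against 34.5% to 37.1% over all genes. Reproducible IGF2BP2 IP regions found in all 4 libraries numbered 19 of 46 on IGF2BP1, 8 of 20 on the IGF2BP2 gene and 11 of 37 on IGF2BP3, beside 38.0% over all genes.

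**Figure D5:**
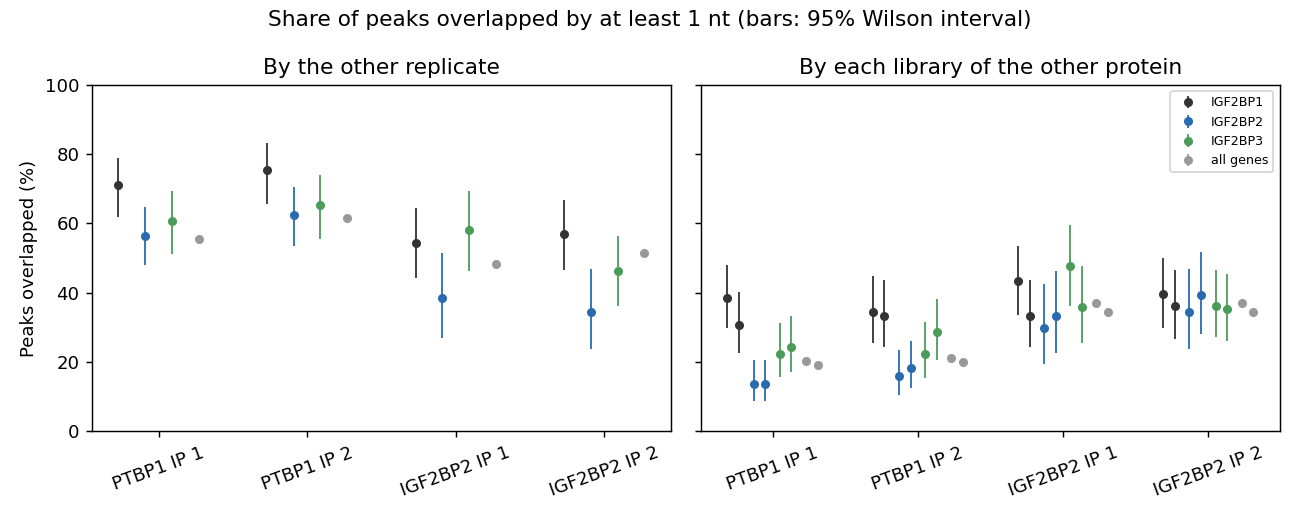
Share of peaks on each gene overlapped by at least 1 nt by the other replicate (left) and by each library of the other protein (right), with 95% Wilson intervals. The values of all genes, over every peak of a list, are grey. PTBP1 peaks on IGF2BP1 lie above grey in both panels, while over peaks of at least 10 IP reads their intervals held the values of all genes, and the IGF2BP2 gene lies lowest of the 3 genes for the other replicate in all 4 libraries, an order that turned over peaks of at least 10 IP reads (82.6% and 89.7% in PTBP1).

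The pathway around the family was described by 3 gene lists, of which 37 of 38 genes could be tested for density. Of these, 6 passed toward PTBP1 and 6 toward IGF2BP2, while 25 missed the threshold, beside 25.0% of all genes called. The median difference was -0.17, against -0.01 over all genes. An enriched PTBP1 region was present on 18 of the 36 list genes with a reproducible one, beside 17.7% of all such genes, and an enriched IGF2BP2 region on 17 of 33, beside 27.9%. Both were present on 8 of the 33 with reproducible regions of both, beside 9.66% of all such genes. The lists were not matched to other genes for peak number.

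Protein partners of IGF2BP ribonucleoproteins had 0 genes denser in PTBP1, 3 denser in IGF2BP2 and 9 short of the threshold (median -0.37). LARP1, a binder of cap-proximal mRNA sequence, had 85, 83, 108 and 96 peaks in the order of the libraries (-0.97 ± 0.11 SE, limma adjusted p = 0.00254) and 4 enriched IGF2BP2 regions, all in its 3′ UTR. G3BP1, a stress granule protein, had 24, 24, 29 and 39 (-1.17 ± 0.23 SE, adjusted p = 0.0126), with 2 enriched IGF2BP2 regions in its 3′ UTR. SYNCRIP, an hnRNP of the same particles, had 18, 15, 22 and 19 (-1.0 ± 0.23 SE, adjusted p = 0.0230). For PTBP1 the leading genes were MATR3, a nuclear matrix protein, with 5 enriched regions, and HNRNPU with 3.

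Writers, erasers and readers of N6-methyladenosine, a mark that IGF2BP proteins are known to read, had 3 of 13 genes higher in PTBP1 and 1 in IGF2BP2 (median 0.26). METTL3, the catalytic writer, had 11 and 11 PTBP1 peaks and 0 and 0 of IGF2BP2. YTHDC2 had 24 and 15 against 3 and 0. FTO, a demethylase, had 148 and 119 against 42 and 34 (1.11 ± 0.14 SE, limma adjusted p = 0.00296), and the reader YTHDF1 34 and 28 against 31 and 36 (-0.81 ± 0.19 SE, adjusted p = 0.0239). ZC3H13, of the writer complex, led in enriched PTBP1 regions with 9, and ALKBH5, a demethylase, in those of IGF2BP2 with 4.

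Of the let-7 and HMGA2 axis, through which IGF2BP proteins are known to shield mRNAs from microRNAs, 3 of 12 genes were higher in PTBP1 and 2 in IGF2BP2 (median -0.06). TUT7, a uridylyltransferase, had 29 and 29 PTBP1 peaks against 9 and 7, AGO1 47 and 33 against 14 and 10, and DROSHA, the nuclear microRNA processor, 91 and 87 against 41 and 30. The differences were 1.11, 1.00 and 0.64 (limma adjusted p = 0.0249, 0.0286 and 0.0309). AGO2 had 187 and 193 against 162 and 148 (-0.40) and DGCR8 61 and 53 against 60 and 45 (-0.56), both toward IGF2BP2 (limma adjusted p = 0.0283 and 0.0405). AGO2 had 7 enriched IGF2BP2 regions, 6 of them in introns, and HMGA1 4, all in its 3′ UTR. DROSHA and TNRC6A led in enriched PTBP1 regions with 6 each. HMGA2, a classic IGF2BP target chosen here after its values were seen, did not pass, with 19 and 26 PTBP1 peaks against 9 and 1.

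The genes most like each member were found by distance over 12 log2 peak numbers, the 4 libraries by coding sequence, 3′ UTR and intron, and are a description. For IGF2BP1 they were SLC35E2B (distance 1.64), CHFR (1.66) and IQCE (1.80). CHFR had 14 and 15 PTBP1 peaks in coding sequence against 6 and 3 of IGF2BP2, and 12 and 10 against 22 and 16 in the 3′ UTR. For the IGF2BP2 gene they were ABTB2 (1.24), ADGRG1 (1.58) and TFEB (1.59), and for IGF2BP3 CFLAR (1.74), SPIN1 (2.02) and ERBIN (2.12). None was a member of the family.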

How the data were processed

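Each IP library has a deposited list of its own with 1 line per peak. A line gives, per the file headers, a −log10 p, a column named Count, strand, gene name, transcript region and overlap length. The −log10 p and Count values were made by the authors, and from the values deposited Count is a log2 of IP over input reads plus a constant per chromosome. The overlap length was not used. HISAT2 and hg38 are named in the submitters' processing notes, and the sources used here name neither the peak caller nor the annotation.

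Lines that repeated a peak, at most 55 in a list, were dropped. The lists held 600615 and 538802 PTBP1 peaks and 362700 and 341305 IGF2BP2 peaks, with a median of 11, 9, 4 and 4 IP reads. Reads were recovered where the deposited log2 was at least 0 and −log10 p at least 0.1 and below 400. The match was within 1% of an exact binomial or a chi-square p, for 99.9% of such peaks in each list. The constant of each chromosome was replaced by the median over chromosomes. Total read depth is unknown.

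Density was log2((peaks + 0.5)/(peaks in the list + 1) × 10000), tested with limma 3.58.1 (R 4.3.3) with trend over all genes with at least 10 peaks, all 3 members among them, and called at a Benjamini-Hochberg adjusted p under 0.05. Shares per region were compared by exact permutation tests over libraries. Overlaps (bedtools 2.31.1) needed 1 nt on the same strand. Coordinates are 1-based, and gene positions and the printed sequence come from RefSeq (GRCh38.p14). Code was tested on simulated data. Alternatives changed the pseudocount, filter, scaling, peaks counted, bars, overlap and libraries, and the fits to 1 transcript region were added after seeing the data.

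The members and lists were chosen with earlier results of these data known. Named were all enriched regions of the members, list genes called with the largest differences (at most 3 per direction) or with the most enriched regions (at most 2 per list and protein), and the 3 genes nearest to each member.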

Additional observations from a re-analysis of the deposited data

How the results depend on the processing

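The density difference of IGF2BP1 passed under every setting over all its peaks except peaks of at least 10 IP reads (-0.10), and among fits to 1 transcript region it passed in introns, missed in 3′ UTRs (-0.52) and changed sign in coding sequence (1.41). With at least 10 IP reads the median difference over all genes tested was 0.64, against -0.01 over all peaks. The cause of these changes was not tested. The IGF2BP2 gene, short of the threshold in the report, passed with a pseudocount of 2 (0.37), TMM scaling (0.43), nucleotides (0.72), peaks over 4 nt (0.45), at least 10 IP reads (2.21) and introns (0.50), and changed sign in coding sequence (-0.59). Leaving out 1 library gave -0.58 to -0.53 for IGF2BP1, 0.30 to 0.48 for the IGF2BP2 gene and -0.57 to -0.041 for IGF2BP3. Genes called, 3782 in all, 1922 higher in PTBP1 and 1860 in IGF2BP2, ranged from 2267 to 6388, 1114 to 3422 and 1153 to 2966. They were 6405, 3209 and 3196 by nucleotides, 1117, 611 and 506 in coding sequence, and 311, 145 and 166 in 3′ UTRs, where fewer genes were tested.

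With the replicate number as a block, 4763 genes were called, and the IGF2BP2 gene passed (0.39, limma adjusted p = 0.0325), while IGF2BP1 (0.00214) stayed called and IGF2BP3 (0.105) uncalled. Whether same-numbered libraries of the 2 proteins shared a culture or a batch is not known. Their deviations from the group means had a correlation of -0.002 over genes, which are not independent, and this cannot decide it.

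Enriched regions changed with the bar. At a log2 of at least 4, PTBP1 kept 0 of the 2 on IGF2BP1 and 0 of the 1 on the IGF2BP2 gene, and the IGF2BP2 IP had 2 on IGF2BP1 and 1 on the IGF2BP2 gene. At a −log10 p of at least 5, the IGF2BP2 gene had 0 for each protein and IGF2BP3 0 for IGF2BP2. Scores as deposited gave PTBP1 7 on the IGF2BP2 gene. Counts under a 50% overlap, or with regions within 50 nt joined, stayed within 1.5 times.

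Differences in region shares (percentage points, PTBP1 minus IGF2BP2) that changed sign were those of IGF2BP1 introns, from -7.15 to 35 with at least 10 IP reads and 27.8 over enriched peaks; of IGF2BP2 coding sequence, from -2.80 to 19.0 and 10, 3′ UTR, from -3.05 to 5.83 with at least 10 reads, and introns, from 5.84 to -27.3 and -10; and of IGF2BP3 introns, from 0.684 to -1.82 by nucleotides and -15.5 with at least 10 reads. Without 1 library they ranged from -6.73 to 1.12 and from -0.427 to 12.1 for IGF2BP2 coding sequence and introns, and from -1.20 to 2.57 for IGF2BP3 introns.

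Replicate overlap of PTBP1 peaks, as means of 2 lists, went from 73.4%, 59.5% and 63.0% on IGF2BP1, IGF2BP2 and IGF2BP3 to 64.1%, 51.2% and 55.8% when 50% of the peak had to be shared. With at least 10 reads it was 86.2% on IGF2BP2 and 79.8% on IGF2BP3. Overlap by the other protein went from 34.3%, 15.4% and 24.4% to 20.3%, 8.59% and 12.7% with 50% shared, and to 27.7%, 27.7% and 35.1% with at least 10 reads. For IGF2BP2 peaks, replicate overlap was 55.7% on IGF2BP1 and 49.4% with 50% shared, and with at least 10 reads 92.9%, 100% and 90.0% on the 3 genes. Overlap by PTBP1 went from 38.1%, 34.2% and 38.8% to 31.6%, 28.4% and 34.2%, and to 65.7%, 100% and 71.2% with at least 10 reads, where few peaks were left on IGF2BP2 (2 and 1) and IGF2BP3 (4 and 5).

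With 2 libraries a protein, total depth unknown and most IGF2BP2 peaks on few reads, whether a missing peak is absent or undetected was not tested.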
